A study of Mus musculus with 2 samples.

Results

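The weak distal regions of activated mouse regulatory T cells are accessible regions that lie far from promoters and that the study's stricter peak list leaves out. They were chosen by measured values. Overlapping rows of the permissive (pseudoreplicated) peak list were merged into 50037 regions, and a region was kept when it overlapped no row of the list past a threshold on the irreproducible discovery rate (IDR) and when its strongest summit lay over 1000 bp from every protein-coding transcription start site (TSS). The rule left 19920 members. They made up 57.0% of all distal regions in the permissive list, a share that the rule itself sets. Of the other regions outside the thresholded list, 4078 were at promoters. The comparison set was the 15068 distal regions among the 26090 regions of the thresholded list.

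In ATAC-seq, a transposase cuts and tags open chromatin, and the tagged sites are sequenced. The cells were activated regulatory T cells from male mice aged 4 months of the strain Foxp3CreERT2 x Rosa26YFP, in which, as background, the Foxp3 gene drives an inducible Cre and Cre switches on YFP. The labels give bone marrow hematopoietic cell as the origin of the primary cells. The 2 libraries are technical replicates 1 and 2 of biological replicate 1, they form 1 group, and no control group is named. The peak lists describe both libraries together, so no value below has a replicate error, and the depth behind the lists is unknown. Of the genes that define regulatory T cells, Ctla4, Il2ra and Ikzf2 each had a thresholded region at the promoter. The promoter of Foxp3 was also counted as having one, but the only thresholded region assigned to Foxp3 was distal by its summit. A thresholded region counted at a promoter, here and below, can thus also be a distal region.

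Distal accessible regions include enhancers, which bind transcription factors and act on genes from a distance, and sites of CTCF, a zinc finger protein that anchors chromatin loops and insulates domains. In T cells, ETS and RUNX factors occupy many enhancers in the resting state, and AP-1 factors bind after activation of the T cell receptor. IDR scores how well a peak keeps its rank between a pair of inputs, so that a peak that is strong in one input and weak in the other gets a high IDR. A peak of low rank in both inputs can get one too.

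Of 19 motifs searched, CTCF had the largest excess, in percentage points, in weak over thresholded distal regions. Of the 6 strongest weak distal regions in introns or between genes, with 1 chromosome not considered and with a match to the CTCF motif (CCA, any 2 bases, AG, any 2 bases, GGC, on either strand) within 100 bp of the summit, 5 are therefore shown, each as 41 bases around the match. They were chosen after the motif shares had been seen. Each is named by the gene with the nearest TSS, is written 5′ to 3′, comes from the RefSeq copy of GRCm38.p6, the assembly of mm10, and has the match in capitals. The Rere window is chr4:150339107-150339147 on the plus strand, in an intron of Rere. The Mtus1 window is chr8:41043702-41043742 on the minus strand, in an intron of Mtus1. The Gnb1 window is chr4:155481537-155481577 and the Dapl1 window is chr2:59541652-59541692, both plus strand and intergenic. The Mccc2 window is chr13:100002010-100002050, plus strand, in an intron of Mccc2.
Rere: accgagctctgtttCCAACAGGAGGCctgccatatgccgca
Mtus1: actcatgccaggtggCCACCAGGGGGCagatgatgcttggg
Gnb1: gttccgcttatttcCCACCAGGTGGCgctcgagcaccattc
Mccc2: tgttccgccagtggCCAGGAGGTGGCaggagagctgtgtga
Dapl1: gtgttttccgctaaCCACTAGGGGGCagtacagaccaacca

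Windows of the strongest summit and 100 bases to either side are shown for Tet2 and for 5 genes of regulatory T cells and Th2 cells. Each is the strongest member of its gene, with signals from 10.8 to 19.8 against a median of 5.74 over all members, so they are not typical in strength. The 5 are not the strongest of their lists: the windows of Irf4 (signal 12.8), Itgb8 (12.3) and Nt5e (11.1) are not shown. Capitals mark every match to the 19 motifs on either strand, among them ETS (CAGGAAGT or CCGGAAGT), RUNX (TGTGGTT) and AP-1 (TGANTCA). The Tet2 window, chr3:133563652-133563852, belongs to the third strongest member and lies upstream of the gene for a dioxygenase that oxidises methylated cytosine. The Icos window, chr1:60961188-60961388, lies upstream of the gene for a costimulatory receptor. The Socs2 window, chr10:95372099-95372299, lies downstream of the TSS of a gene for a cytokine signalling inhibitor. The Ikzf2 window, chr1:69703601-69703801, lies upstream of the gene for Helios, a transcription factor of regulatory T cells. The Fgl2 window, chr5:21378482-21378682, lies in an intron of Ccdc146, close to the gene for a secreted suppressive protein. The Il5 window, chr11:53735677-53735877, lies downstream of the TSS of a Th2 cytokine gene. All 6 are on the plus strand, and the other 5 are intergenic.
Tet2: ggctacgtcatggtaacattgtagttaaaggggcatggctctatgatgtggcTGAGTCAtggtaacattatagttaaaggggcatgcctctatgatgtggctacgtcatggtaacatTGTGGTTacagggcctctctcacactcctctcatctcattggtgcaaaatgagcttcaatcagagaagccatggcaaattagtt
Icos: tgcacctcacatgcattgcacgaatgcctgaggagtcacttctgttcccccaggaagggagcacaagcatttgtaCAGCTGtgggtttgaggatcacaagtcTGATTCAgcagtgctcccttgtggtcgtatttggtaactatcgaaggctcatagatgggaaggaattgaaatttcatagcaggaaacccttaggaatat
Socs2: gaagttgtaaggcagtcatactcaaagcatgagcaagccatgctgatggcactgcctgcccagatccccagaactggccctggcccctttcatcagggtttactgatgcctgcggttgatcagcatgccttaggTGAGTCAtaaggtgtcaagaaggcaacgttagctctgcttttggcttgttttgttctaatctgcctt
Ikzf2: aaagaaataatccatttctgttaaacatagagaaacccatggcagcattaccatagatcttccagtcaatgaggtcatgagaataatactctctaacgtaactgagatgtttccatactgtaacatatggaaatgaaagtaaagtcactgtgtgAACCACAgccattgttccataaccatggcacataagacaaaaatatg
Fgl2: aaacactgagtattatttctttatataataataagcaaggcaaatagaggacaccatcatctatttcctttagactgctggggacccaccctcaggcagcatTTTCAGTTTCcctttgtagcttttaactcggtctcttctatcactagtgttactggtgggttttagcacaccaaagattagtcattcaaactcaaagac
Il5: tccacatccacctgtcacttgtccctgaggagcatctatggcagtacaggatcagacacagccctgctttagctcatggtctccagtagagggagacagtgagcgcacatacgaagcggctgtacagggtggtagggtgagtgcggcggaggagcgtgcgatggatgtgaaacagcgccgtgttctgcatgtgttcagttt

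Tet2 holds an AP-1 and a RUNX match, Icos an AP-1 match and the E-box CAGCTG, Socs2 an AP-1 match, Ikzf2 a RUNX match and Fgl2 an IRF match (TTTCAGTTTC). The Il5 window holds none of the 19 motifs searched. A match is a description of letters and not a measured binding site.

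The deposited signal value, the enrichment that the peak caller wrote for each peak, was low in most members. Its median was 5.74 (quartiles 4.39 and 7.60) in the weak distal regions and 12.6 (quartiles 9.35 and 16.5) in the thresholded distal regions, a ratio of the medians of 0.456. The members ran from 1.55 to 20.7, and the thresholded distal regions reached 64.99. Since the peak lists were made from these values, the gap is a description of the choice and carries no test.

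**Figure D1:**
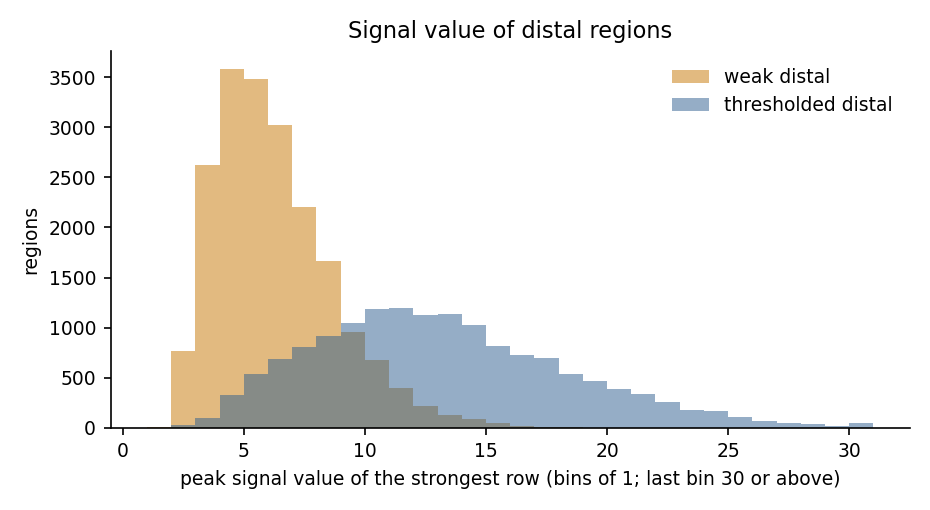
Number of regions (y axis) by signal value of the strongest row (x axis, bins of 1) for weak distal and thresholded distal regions. The weak regions centre on 5.74 and the thresholded ones on 12.6. Both sets have regions in every bin from 1 up to 21.

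The word weak did not hold for every member by signal. In all, 385 members had a signal above the thresholded distal median, and 837 thresholded distal regions lay below the weak median. Signal values over 10 were found in 1602 members, or 8.04% (Wilson 95% interval 7.67 to 8.43), and in 70.3% of thresholded distal regions. Wilson intervals here and below cover counting error only. At the threshold itself, the 10 members just outside had an IDR of 0.05002 to 0.0502 and a median signal of 8.58 (5.94 to 15.7). The 10 thresholded distal regions just inside had a median signal of 7.48 (4.07 to 11.8).

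The strong members were mostly strong in one IDR input and weaker in the other, a description of the rule, which used the IDR. The 2 inputs gave values within 2-fold of each other, as −log10 p, in 73.3% of members and in 98.0% of thresholded distal regions. Among members the share fell from 84.2% in the lowest quartile by signal to 58.9% in the highest. Of the 92 members with a signal over 15, only 4 had inputs within 2-fold (4.35%, interval 1.70 to 10.7), and the larger input exceeded the smaller by a median of 2.6-fold. The region in an intron of Rere, which encodes a nuclear receptor corepressor, had a signal of 20.6 and input values of 56.2 and 11.4. The Tet2 region had a signal of 19.8 and input values of 18.9 and 58.1. Which input was higher thus differed between these members. Over all members, 54.6% had the highest IDR that the ranked list contains, 0.388, and 11.8% lay between 0.05 and 0.1. The median IDR was 0.388 in the lowest quartile by signal, where most inputs were within 2-fold. It was 0.157 in the highest quartile and 0.108 in members with a signal over 15. The sources used here do not say what the 2 inputs were.

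Weak distal regions were also narrow. Their median width was 298 bp, against 529 bp in the thresholded distal regions, and 2205 members were wider than the latter. More than 1 summit was present in 13.95% of members and in 38.0% of thresholded distal regions. In all, the members covered 6846 kb and the thresholded distal regions 8548 kb.

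Weak distal regions sat mostly in introns and between genes, as did thresholded ones. Introns of protein-coding genes held 10027 members, or 50.3% (interval 49.6 to 51.0), against 48.2% (47.4 to 49.0) of thresholded distal regions. The difference was 2.15 percentage points (95% interval 1.10 to 3.21). Among members with a signal at or above their median it was −0.31 points (interval −1.55 to 0.94). Intergenic sequence held 45.7% of members and 48.5% of thresholded distal regions. Of the distal genome, sampled at 1 position per kb, 35.3% was intronic and 62.4% intergenic, so both sets were denser in introns than the genome, by 1.42 and 1.36 times. Coding exons held 1.75% of members, 3′ UTRs 2.11% and 5′ UTRs 0.0502%.

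Distances from genes were close in both sets. The median distance to the nearest protein-coding TSS was 15831 bp for members and 15308 bp for thresholded distal regions. A TSS of a long noncoding RNA lay within 1 kb of 3.07% of members (interval 2.84 to 3.32) and of 4.88% of thresholded distal regions (4.55 to 5.23). Summits lay in repeats, as soft-masked in the reference, in 12.2% of members, 9.01% of thresholded distal regions and 37.1% of the distal genome. The median GC content of these summit windows was 47.8% and 49.3%, and 12.5% against 7.72% of the windows held no CpG.

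Weak distal regions lay near thresholded regions much more often than the distal genome did, and somewhat less often than thresholded regions lay near each other. Within 10 kb of a thresholded region were 9672 members, or 48.6% (interval 47.9 to 49.2). The share was 57.0% (56.2 to 57.8) for thresholded distal regions measured to the nearest other thresholded region, and 13.1% for the distal genome. The difference between the sets was −8.43 percentage points (95% interval −9.49 to −7.38). The median distance was 10.5 kb for members (quartiles 3.72 and 29.1 kb) and 7.98 kb for thresholded distal regions. For 65.6% of members, the nearest thresholded region was itself distal.

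**Figure D2:**
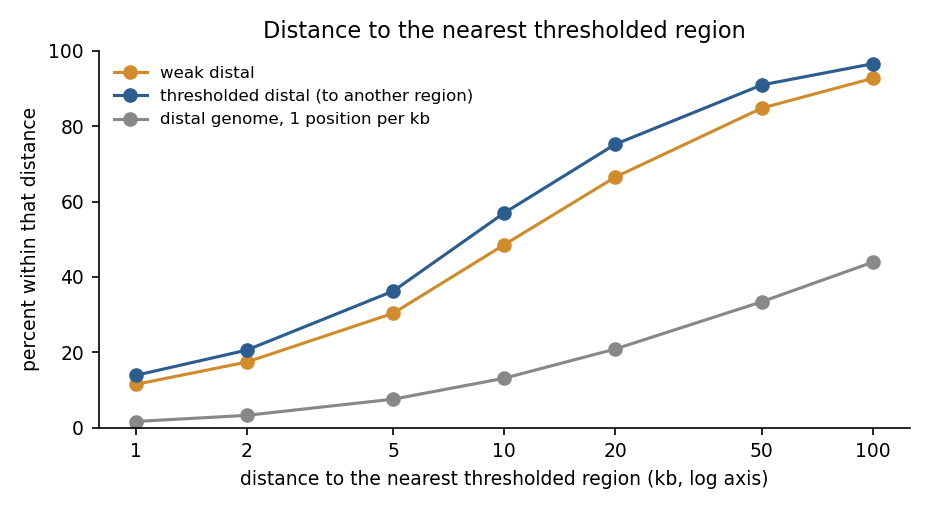
Percent of regions or positions (y axis) within a given distance (x axis, kb, log scale) of the nearest thresholded region, for weak distal regions, thresholded distal regions and the distal genome. At 10 kb the shares were 48.6%, 57.0% and 13.1%, and the weak regions lie below the thresholded ones at each distance plotted.

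A tail of members lay far from any thresholded region. Over 100 kb away were 1454 members, or 7.30% (interval 6.95 to 7.67), against 3.44% (3.16 to 3.75) of thresholded distal regions. The farthest, with a signal of 4.05, lay 4552 kb from a thresholded region and had Pabpc4l as its nearest gene. Its IDR was at the highest value listed.

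Members close to a thresholded region had lower signal values. The median signal was 4.22 in the 2293 members within 1 kb, 4.74 at 3 to 4 kb, 5.29 at 4 to 5 kb, 6.07 at 5 to 6 kb and 6.41 at 10 to 15 kb. The thresholded distal regions showed a step over the same distances, from 8.88 at 3 to 4 kb through 11.6 at 4 to 5 kb to 13.8 at 5 to 6 kb. The median −log10 p of members did not rise with it: it was 15.1 at 3 to 4 kb and 13.5 at 5 to 6 kb. That of thresholded distal regions did rise, from 57.9 at 3 to 4 kb through 58.9 to 67.7 at 5 to 6 kb. At 10 to 15 kb it was 57.8. How the caller normalized locally is unstated in the sources used here, and its part in the step was not tested. The lowest quartile of members by signal lay near thresholded regions more often than the highest, with 70.8% against 32.0% within 10 kb.

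**Figure D3:**
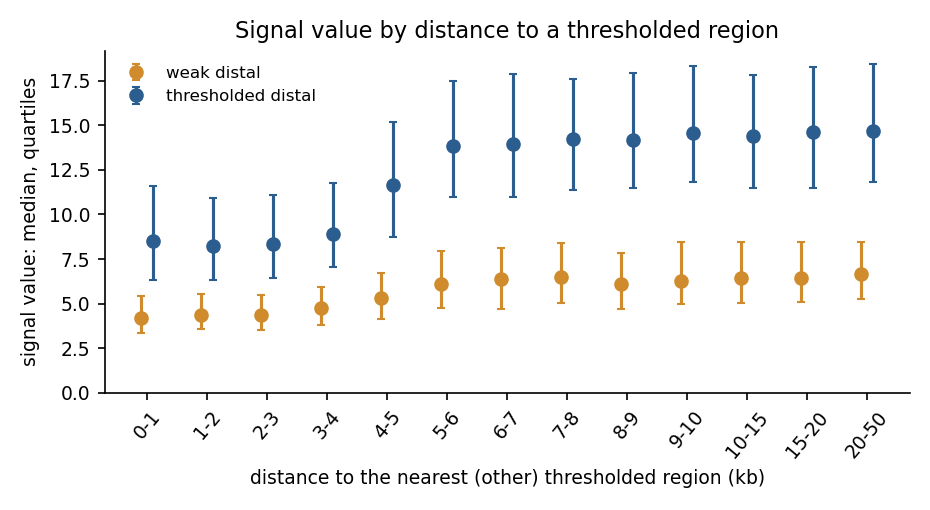
Median signal value with quartiles (y axis) by distance to the nearest other thresholded region (x axis, kb) for weak distal and thresholded distal regions. Both sets step up between 3 and 6 kb, from 4.74 to 6.07 and from 8.88 to 13.8.

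Weak distal regions lay near each other about as often as thresholded distal regions did. Another member lay within 10 kb of 8980 of them (45.1%, interval 44.4 to 45.8), and another thresholded distal region within 10 kb of 45.6% of thresholded distal regions. Of the distal genome, 11.2% lay within 10 kb of a member. The same share for thresholded distal regions was not computed. The sets differ in size, 19920 against 15068, so these shares do not compare clustering at equal density. Chained within 10 kb with no thresholded region between them, members formed runs, of which 12193 held 1 member, 2387 held 2 and 27 held 6 or more. The longest run held 9 members over 32.7 kb (chr3:89876534-89909185), all nearest to Il6ra, the gene of the interleukin-6 receptor. Its median signal was 4.37. Runs of 8 members lay near Tnip1, which encodes an inhibitor of NF-kB signalling, and between Cetn4 and Il21. These genes were picked after the runs were seen. Among the runs of 7 was one at Emsy and Lrrc32, the latter encoding the surface anchor of latent TGF-beta on regulatory T cells, and one at Cd247, the gene of the CD3 zeta chain.

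The CTCF motif was more frequent in weak than in thresholded distal regions, and the ETS, RUNX and AP-1 motifs were less frequent when overlapping rows were merged. A CTCF match lay within 100 bp of the summit in 2821 members, or 14.2% (interval 13.7 to 14.7). The share was 10.2% (9.72 to 10.7) in thresholded distal regions, 10.01% over all regions of the permissive list, and 1.74% in windows centred 1000 bp from the members' summits. The difference between the sets was 3.97 percentage points (95% interval 3.28 to 4.65). Against its flanks the CTCF motif was 8.13-fold enriched in members and 5.93-fold in thresholded distal regions.

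ETS matches were found at 10.2% of members and 14.5% of thresholded distal regions, a difference of −4.26 percentage points (95% interval −4.96 to −3.56). RUNX matches were found at 11.2% and 13.8%, and AP-1 matches at 11.7% and 13.5%. With unmerged rows the difference was −0.62 points for RUNX (interval −1.20 to −0.04) and −0.45 for AP-1 (−1.04 to 0.13, which includes 0). Unmerged rows can overlap each other, so these intervals are no test. Over all regions of the permissive list, which include promoters, the shares were 11.8%, 9.85% and 10.1%. All 3 motifs were above the members' flanks, where they stood at 1.86%, 5.16% and 6.17%. At least 1 of the 4 motifs was present in 42.0% of members and in 13.9% of their flanks, against 45.0% and 13.7% for thresholded distal regions.

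The excess of CTCF was in the stronger members. By quartile of signal its share rose from 5.70% through 12.8% and 17.3% to 20.9%. At equal signal, from a signal of 4 upwards, the sets differed by more than over all. Equal signal did not mean equal distance to a thresholded region, with which the CTCF share also varied. In members it was 11.3% within 10 kb and 17.6% beyond 50 kb, and in thresholded distal regions 7.92% and 13.8%. Between 6 and 8, a match was present in 17.9% of 5230 members (interval 16.9 to 18.9) and in 6.54% of 1499 thresholded distal regions (5.39 to 7.90). Between 10 and 12 the shares were 22.7% (20.3 to 25.3) and 12.04% (10.8 to 13.4). Below 4 they were 4.83% and 5.04%, with intervals that overlapped. Below 4 the RUNX share was 10.1% in members (interval 9.16 to 11.2) and 6.47% in the 139 thresholded distal regions (3.44 to 11.8), and the AP-1 share 12.4% (11.3 to 13.5) and 7.91% (4.48 to 13.6), again with overlap. Between 6 and 8 both motifs were lower in members, RUNX at 10.7% against 13.1% and AP-1 at 11.4% against 13.7%. ETS shares changed little across the members' quartiles, from 9.50% to 10.9%.

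**Figure D4:**
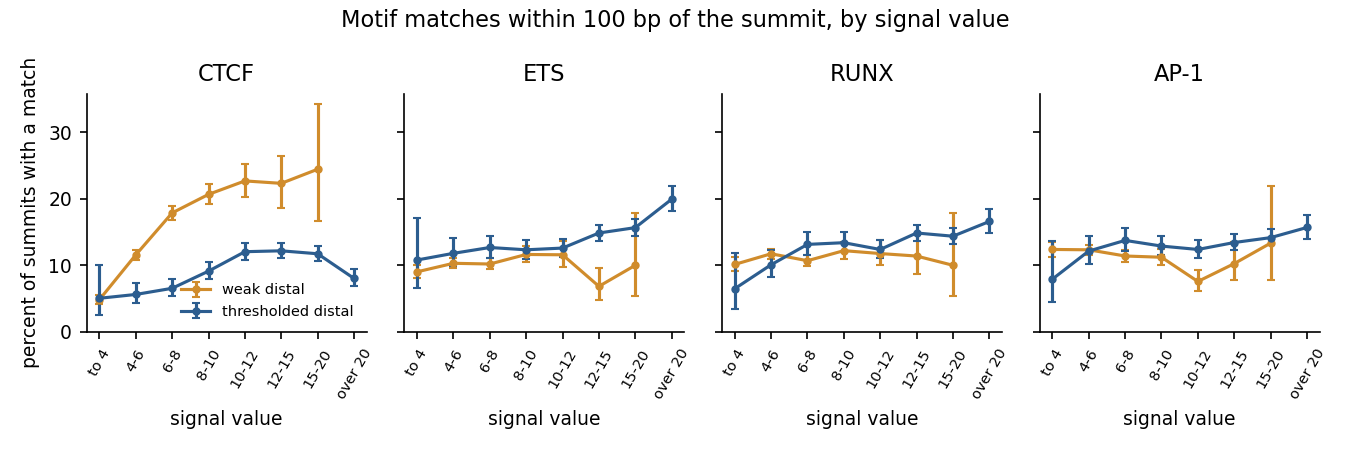
Percent of summits with a motif match within 100 bp (y axis) by signal value (x axis) for weak distal and thresholded distal regions, with Wilson 95% intervals and bins of 50 or more regions. CTCF in weak regions rises from 4.83% to over 20% and lies above the thresholded regions from a signal of 4 upwards, while the other 3 motifs stay near 10% in most bins of the weak regions.

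Members with a CTCF match lay in other places than members as a whole, and thresholded distal regions with a match were shifted in the same directions on most measures, by these descriptions without a test. The median width was 257 bp in members with a match (298 bp over all members) and 436 bp in thresholded distal regions with one (529 bp over all of these). Intergenic were 53.0% (45.7%) and 57.1% (48.5%), and the median distance to another thresholded region was 14.8 kb (10.5 kb) and 11.7 kb (7.98 kb). A thresholded region lay at the promoter of the assigned gene in 65.8% (72.8%) and 71.9% (78.0%). Summits in repeats made up 16.8% (12.2%) and 9.70% (9.01%). Among members with the summit in a repeat, 19.5% held a CTCF match, against 13.4% of the rest, while in thresholded distal regions the shares were 10.97% and 10.1%. The median −log10 p moved in opposite directions, to 15.4 (13.3) in members with a match and 45.1 (57.9) in thresholded distal regions with one. The shares on chromosome X and with inputs within 2-fold also moved in opposite directions, by little.

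Of the other motifs searched, several were above their flanks and below the thresholded share. The NF-kB motif (GGG, any 2 bases, TTTCC) was found at 2.72% of members and 3.86% of thresholded distal regions, with 0.904% in the members' flanks. The CREB motif (TGACGTCA), which responds to cyclic AMP, was found at 0.517% and 0.976%. The GC box of SP and KLF factors (GGGGCGGGG or GGGGCGGAG), common at promoters, was found at 1.69% and 2.87%, against 7.26% over all regions of the permissive list. IRF matches (GAAA, any 2 bases, GAAA) stood at 6.06% and 6.62%. Matches to NFAT (ATTTTCCA) and to the GATA factors, with the letters AGATAA, were about as frequent at members, at 1.44% and 10.8%, as in their flanks, at 1.26% and 11.02%. In thresholded distal regions they stood lower, at 1.08% and 10.2%; the Wilson intervals did not overlap for NFAT (1.28 to 1.62 against 0.922 to 1.25) and did for GATA. The permissive list as a whole held NF-kB at 2.78%, CREB at 1.38%, IRF at 5.29%, GATA at 8.57% and NFAT at 1.01%.

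All of the remaining motifs were more frequent at members than in their flanks. NR4A matches (AAAGGTCA), a motif of receptor-induced nuclear receptors, were found at 1.58% of members, 1.25% of thresholded distal regions, 1.07% of flanks and 1.17% of the permissive list. In the same order, TCF and LEF matches (CTTTGAA or CTTTGAT) stood at 10.1%, 10.2%, 8.08% and 8.30%. Forkhead matches (TGTTTAC), the motif class of Foxp3 and Foxp1, stood at 3.48%, 3.88%, 2.53% and 3.18%. The STAT motif (TTCCNGGAA) stood at 1.009%, 1.015%, 0.542% and 1.005%, and the KLF motif CCACACCC at 2.85%, 3.405%, 1.71% and 3.02%. The E-box with the letters CAGCTG stood at 13.1%, 13.7%, 9.18% and 12.7%, and the one with CACGTG at 4.36%, 5.24%, 2.60% and 5.65%. EGR matches (GCGGGGGCG or GCGTGGGCG) stood at 0.291%, 0.571%, 0.1004% and 1.55%. The composite of BATF and IRF, an AP-1 match with TTTC or GAAA 3 bases before it, stood at 0.487%, 0.531%, 0.166% and 0.380%.

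On chromosome X a larger part of the distal regions was weak. It held 557 weak and 284 thresholded distal regions, so that 66.2% were weak (interval 63.0 to 69.3). The share was 56.7% (56.2 to 57.2) over the autosomes together and ran from 55.6% to 60.2% among them, with the highest on chromosome 14. The median signal of X members was 6.30, against 5.74 on autosomes, and that of thresholded distal regions was 13.3 against 12.6. The animals were male, with a single X copy. Copy number as a part of the difference was not tested.

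Each member was assigned to the protein-coding gene with the nearest TSS within 100 kb, which placed 17854 members (89.6%). They fell to 7745 genes, or 35.3% of the 21938 protein-coding genes. Of these, 3516 had no thresholded distal region (16.0% of all genes) and 1776 had no thresholded region of any kind (8.10% of all genes). A nearest gene is not a shown target. Members were denser around genes with a thresholded promoter region, at 18.1 per Mb of distal territory, meaning the sequence 1 to 100 kb from a gene's TSS with no nearer TSS of another gene. Around other genes there were 5.60 per Mb. For thresholded distal regions the values were 14.9 and 3.48 per Mb.

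The genes with the most members included large genes of T cell regulation and signalling. Bach2, whose product restrains effector differentiation, had 27 members beside 26 thresholded distal regions, with member signals from 3.22 to 12.8 (median 4.71). Akap13, which encodes a kinase anchor protein, had 24 members and 15 thresholded distal regions. Foxp1, a forkhead factor of resting T cells, had 23 and 22. The kinase gene Fyn, active downstream of the T cell receptor, had 20 and 15. Itpr1, a calcium channel of internal stores, had 20 and 18, and the chromatin remodeller gene Chd2 had 18 and 10. In other genes of this group the thresholded distal regions were also fewer than the members. Over all protein-coding genes there were 1.30 members per thresholded distal region. Atxn1 and the phosphoinositide phosphatase gene Inpp4b each had 22 members and 8 thresholded distal regions. Etv6, which encodes an ETS repressor, had 20 members and 10 thresholded distal regions, and Lpp had 19 and 9.

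Regulatory T cell genes carried many members. In the list of regulatory T cell core genes, 18 of 20 had a member, against 35.3% of all protein-coding genes. There were 97 members in the list or 57.5 per Mb, against 11.3 per Mb over all protein-coding genes. The thresholded distal regions of the same list stood at 49.2 per Mb, against 8.66. Foxp3, the lineage factor, had 1 thresholded distal region and no member assigned, in a distal territory of only 9.892 kb, and Tnfrsf4, with 6.623 kb, had no member either. One member lay inside the gene, at chrX:7593898-7594277 with a signal of 3.38, where it overlapped a 3′ UTR and was nearest to the neighbouring gene Ccdc22. Ebi3, a subunit of interleukin-35, had no distal region in either set, in a distal territory of only 2.798 kb.

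Ikzf2, the Helios gene, had 15 members and 7 thresholded distal regions. These assigned members had signals from 2.63 to 11.5 (median 3.74), 14 were intronic, and 7 formed an unbroken run of 29.6 kb in the gene. Weak regions in its introns at chr1:69559760-69560008 (signal 2.47) and chr1:69578965-69579271 (7.28) lay over 100 kb from the TSS and were not assigned. Ctla4, the inhibitory receptor gene, had 11 members and 12 thresholded distal regions, and its members ran from 3.08 to 6.75. Il2ra, the alpha chain of the interleukin-2 receptor, had 8 members and 6 thresholded distal regions. Of the Il2ra members 1 stood above the others, with a signal of 10.4 in an intron at chr2:11672181-11672502, and the other 7 lay between 3.54 and 5.96. Tigit, another inhibitory receptor gene, had 12 members, and Tnfrsf18, the gene of the receptor GITR, had 1.

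Genes of effector regulatory T cells had a similar density, 53.4 members per Mb. Icos had 12 members and 6 thresholded distal regions, with signals from 3.69 to 12.1. Prdm1, the gene of Blimp-1, had 11 and 6, and Il10, the suppressive cytokine gene, had 5 and 4, with Il10 signals from 5.04 to 8.52. Fgl2 had 6 members and no thresholded region at all. Its 6 members had signals of 8.10, 4.87, 9.26, 11.3, 6.24 and 8.24 in chromosome order, and an IDR between 0.0891 and 0.224. All of them lay between 25.6 and 41.8 kb from the nearest thresholded region.

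Lists of other T helper lineages varied widely in their members. Over all protein-coding genes, 35.3% had a member and 8.10% had a member and no thresholded region. Members stood at 11.3 per Mb over all genes, and thresholded distal regions at 8.66. All 10 genes of the Th2 list had a member, at 44.2 per Mb against 27.4 for thresholded distal regions. Il4 had 2 intronic members, with signals of 6.83 and 7.66, and no thresholded region, Il13 had 1 and 1, and Ccr4, a chemokine receptor gene, had 8 and 3. Gata3, the Th2 lineage factor, had 1 member and 3 thresholded distal regions. In the Th17 list, at 18.5 members per Mb, 8 of 9 genes had a member, and Il17a, Il1r1, Il22 and Il23r were among those with no thresholded region. The single member of Il17a had a signal of 5.74. The Th1 list stood at 29.9 members per Mb, and Ifng in it had 7 members and 9 thresholded distal regions.

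Lists of resting T cells and receptor signalling stood as high as the regulatory lists, with 52.8 and 53.9 members per Mb. Tcf7, a factor of resting T cells, had 7 members with signals of 2.97 to 5.65, and 8 thresholded distal regions. Members stood at 32.7 per Mb in the follicular helper list. In the CD8 and cytotoxic list, at 40.98 per Mb, Cd8a, Klrc1 and Nkg7 had a member and no thresholded region, and the 1 member of Cd8a had a signal of 4.05. The lists of B cells, erythroid cells and megakaryocytes, liver and muscle were below the 11.3 over all genes, with 6.34 members per Mb for B cells, 5.48 for erythroid cells and megakaryocytes, 4.61 for liver and 4.51 for muscle. Natural killer cell genes had 17.5, neuron and glia genes 15.8 and epithelium genes 15.1 members per Mb. These rest on few members: Mbp alone held 11 of the 20 in the neuron and glia list. The natural killer cell and epithelium lists held 6 each. Cell cycle genes had 22.6 and housekeeping genes 25.5, in both lists fewer than their thresholded distal regions at 26.5 and 37.3 per Mb. Thresholded distal regions were also denser than members for receptor signalling (57.8 per Mb) and natural killer cells (26.2). The same held for epithelium (17.6) and for erythroid cells and megakaryocytes (10.97). In the B cell and muscle lists the densities were equal, and in all other lists members were denser. The myeloid list stood at 24.9 per Mb, and 6 of its 15 genes had a member, among them Fcgr1, an antibody receptor gene, with 5. That is 40.0% of the list, near the 35.3% of all genes with a member. Of 10 liver genes, 3 had a member, a share below that of all genes. They were Ahsg, Apob and Hnf4a, and none of these 3 had a thresholded region. In the B cell list 6 of 12 genes had a member.

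**Figure D5:**
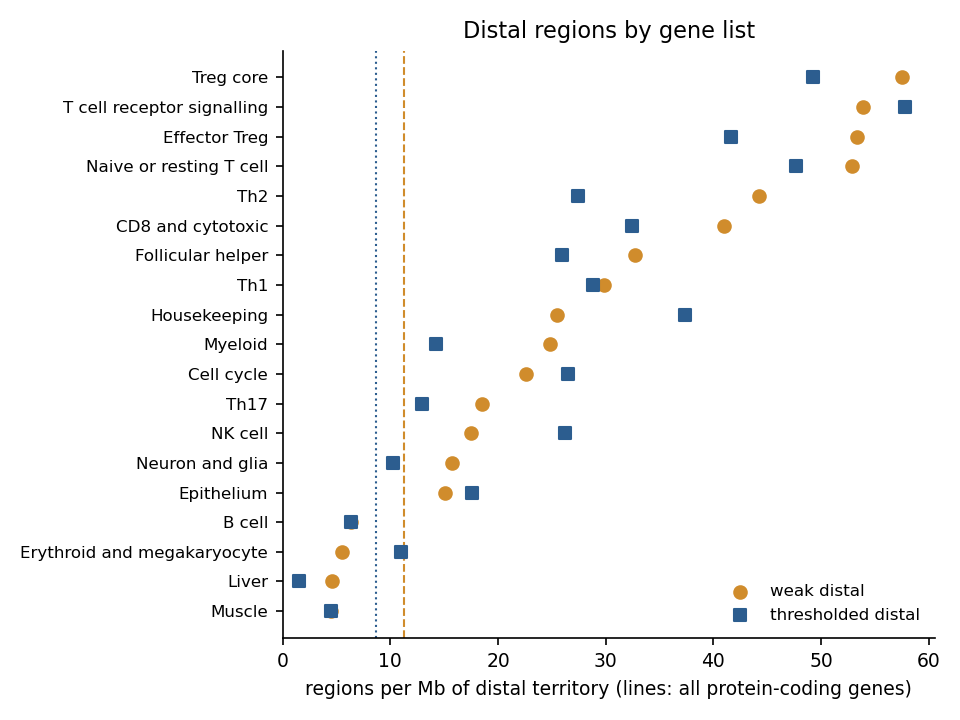
Distal regions per Mb of distal territory (x axis) for each gene list (y axis), weak distal as circles and thresholded distal as squares, with lines at the value over all protein-coding genes (11.3 and 8.66). Most T cell lists lie to the right in both sets, with Th17 lower at 18.5 weak regions, and the regulatory T cell core list has 57.5 weak and 49.2 thresholded distal regions per Mb.

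Among genes with no thresholded region of any kind, Colq, the gene of the collagen tail of acetylcholinesterase, had the most members with 7, and their signals ran from 3.05 to 9.15. Fgl2, P4ha2 and Retnlb had 6 each. P4ha2 encodes a prolyl hydroxylase and Retnlb a resistin-like protein. Apobec2, Cwh43, Evi5, Fcgr1, Gabrr1 and Lmo7 had 5 each. Some of the strongest members lay at genes with no thresholded distal region. Mtus1 had 1 member, with a signal of 18.8, C3, a complement gene, had 1, with 18.5, and C2cd4a had 2, with 18.6 and 14.5. Wdr7 had 1 member, with a signal of 20.7, beside 1 thresholded distal region.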

How the data were processed

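ATAC-seq peak lists of 2 libraries, pooled from 1 mm10 alignment per the README deposited with them, were analysed. The sources used here do not state the aligner, caller, filters or any shift of read positions. The deposited signal value is the caller's enrichment per peak, and the deposited −log10 p is the authors' own per-peak value. Global IDR and the ranking values of the 2 inputs come from the deposited ranked list, where they are scores on a −log10 scale. Depth is unknown, so intervals cover counting error only.

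Rows overlapping by 1 bp or more were merged, with the strongest row supplying a region's signal and summit. Genes came from GENCODE M21 and sequence from RefSeq GRCm38.p6. A summit was placed in a 5' UTR, else a coding exon, else a 3' UTR, else an intron, else between genes. Intervals of a share are Wilson 95% intervals, and those of a difference use the normal approximation. Both treat regions as independent, although 45.1% of members lay within 10 kb of another, and regions are not replicates. With 1 group and pooled lists there is no test. Members, the 19 gene lists (1 listed symbol, Folr4, was not matched), the 19 motifs and the rule for named genes were chosen with earlier results of these data known. The rule named 18 genes in every case, the 10 with the most members, the 10 with the most and no thresholded region, the genes of the 10 strongest members and up to 3 per list; fewer are printed. Genes of the runs, of the farthest member, of the CTCF windows and of short counts were named after their values were seen. A few items withheld from the text are not reported here. Alternatives changed the overlap, the IDR threshold, the TSS distance and gene set, merging, assignment distance, motif window and flank, and left out the 3 members that align to the mitochondrial genome. Python 3.11.15, numpy 2.4.6, pandas 2.3.3, pysam 0.24.0, matplotlib 3.10.9 and blastn 2.17.0 were used, and the interval functions were tested on simulated data.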

Additional observations from a re-analysis of the deposited data

Results flagged for a closer look

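The ranked list holds 128 rows on 16 scaffolds outside chromosomes 1 to 19, X and Y, which no comparison used. Their highest signal value was 37.2, and 58 of them had an IDR of 0.05 or below.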

How the results depend on the processing

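Of 225 values recomputed under 13 alternatives, 173 stayed within their limit (1.5 times for counts and motif ratios, the main 95% interval otherwise) and 1 changed sign. Keeping only members with a signal at or above the median turned the intronic difference to −0.31 points; by construction it left 10498 members and raised the median signal to 7.42, and the 10 kb difference became −21.1 and the CTCF difference 8.75 points. With a thresholded list at an IDR of 0.01, the median signal was 6.33, the CTCF difference 5.93 and the ETS difference −5.50 points. Unmerged rows gave a median signal of 5.40 and differences of 4.03 points for introns, −6.70 for 10 kb, 4.96 for CTCF and −1.97 for ETS. A TSS distance of 2500 bp gave a median signal of 5.86, and a motif window of 50 bp to either side an ETS difference of −3.23 points. For these the cause was not tested beyond construction. For the other results 132 of the recomputed values stayed and 37 moved. No replicate could be left out, because each list pools both libraries. No paired analysis was possible because there is 1 group and the columns carry no replicate. The unknown depth limits which members can be told from regions near the detection limit.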
